A study of Mus musculus with 8 samples.

Results

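The open chromatin of 8 genes of the cytokine feedback loop was examined in MPP3 and MPP4 cells: the feedback inhibitors *Socs1*, *Socs2*, *Socs3* and *Cish*, the kinase gene *Jak2*, and the transcription factor genes *Stat3*, *Stat5a* and *Stat5b*. The genes were chosen with earlier results of these data known, and their peaks were defined by position. A peak belonged to a gene when its center lay in a transcript of that gene, up to 20 kb upstream of the start or up to 10 kb downstream of the end, and no other GENCODE vM21 gene was closer. This gave 49 of 87642 peaks in MPP3 cells and 53 of 86952 peaks in MPP4 cells.

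The assay was ATAC-seq, in which the Tn5 transposase cuts accessible DNA, on 8 libraries of 5000 sorted bone marrow cells each, with 2 libraries for each of 4 groups. MPP3 cells are multipotent progenitors with a myeloid bias and MPP4 cells are multipotent progenitors with a lymphoid bias. By the labels, both were Lin- Sca1+ cKit+ CD150- CD48+, and *Flt3* was named in the gate of MPP4 cells alone. Mice were C57BL/6 with *Ebf1* fl/fl alleles in every group: the controls, named Ebf1-WT, had no Cre (Tie2Cre +/+), and the Ebf1-KO mice carried Cre under the Tie2 promoter, which is active in endothelial and hematopoietic cells (Tie2Cre +/cre). Ebf1-WT mice were 8 weeks old for MPP3 and 9 weeks old for MPP4, whereas Ebf1-KO mice were 8 and 9 weeks old for MPP3 and 8 weeks old for MPP4. All mice were female except 1 of the 2 Ebf1-WT mice used for MPP4.

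Each value below is the authors' mean log2 CPM of a peak, that is, the log2 of counts per 1000000 fragments in peaks, over the 4 libraries of a cell type, with both genotypes pooled. No value per library enters, so no replicate error can be given, the level in each genotype is not analysed here, and whether *Ebf1* was lost in the libraries labeled Ebf1-KO was not checked. MPP3 and MPP4 cells were normalized separately by the authors. Their values are therefore set side by side as a description, with no test, and a peak listed in 1 cell type is not a peak at 0 in the other. The median peak had a log2 CPM of 2.24 in MPP3 and 2.35 in MPP4 cells. Of 6 progenitor markers, 5 had a promoter peak in MPP3 and 6 in MPP4 cells, with *Flt3* the highest (log2 CPM 5.92 and 7.01). *Kit* had 5.54 and 5.63, and *Cd48* had 2.77 and 2.30. *Ly6a*, which encodes the sorting marker Sca1, had no promoter peak in MPP3 cells and 1.15 in MPP4 cells. Of 5 mature cell markers, 2 had a promoter peak in MPP3 and 3 in MPP4 cells, with *Itgam* highest (2.85 and 3.16), while *Cd3e* and *Ly6g* had none in either.

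Cytokine receptors of hematopoietic progenitors carry Janus kinases, which phosphorylate STAT proteins once a cytokine such as erythropoietin or GM-CSF has bound. Phosphorylated STAT dimers enter the nucleus and bind a short palindrome in the promoters and enhancers of their targets. *Socs1*, *Socs2*, *Socs3* and *Cish* are such targets, and their SH2-domain proteins bind receptors or kinases and dampen the signal that induced them.

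The STAT palindrome was searched as TTCNNNGAA, which reads the same on both strands, and in a strict form as TTCCNGGAA. The sequences below are shown because they carry the matches in peaks found in both cell types. They were read from GRCm38 on the strand of the gene, 5′ to 3′, and capitals mark the palindromes. The *Socs2* promoter stretch lies at chr10:95416899-95416928 on the minus strand, the *Socs3* promoter stretch at chr11:117969229-117969258 on the minus strand, and the *Cish* stretches at chr9:107296654-107296683 and chr9:107296762-107296791 on the plus strand.
*Socs2* promoter: gcggaTTCCTGGAAagTTCCTGGAAagcgg
*Socs3* promoter: cggccgggcagTTCCAGGAAtcggggggcg
*Cish* promoter, first pair: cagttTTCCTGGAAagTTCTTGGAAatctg
*Cish* promoter, second pair: ggTTCTAGGAAgatgaggcTTCCGGGAAgg

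Away from the promoters, matches lay downstream of *Socs1* (chr16:10772173-10772459, minus strand, the stretch covered by both cell types' peaks), downstream and upstream of *Socs3* (chr11:117960073-117960157 and chr11:117976187-117976271, minus strand), downstream of *Cish* (chr9:107306436-107306520, plus strand) and in a *Jak2* intron (chr19:29270506-29270590, plus strand). None of these stretches overlapped an exon of the gene in GENCODE vM21 or RefSeq.
*Socs1* downstream: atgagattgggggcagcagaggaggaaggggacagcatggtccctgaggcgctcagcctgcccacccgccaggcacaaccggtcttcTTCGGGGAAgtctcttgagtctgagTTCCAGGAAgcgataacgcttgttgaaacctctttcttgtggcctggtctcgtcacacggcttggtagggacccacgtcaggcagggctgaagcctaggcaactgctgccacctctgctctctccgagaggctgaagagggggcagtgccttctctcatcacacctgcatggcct
*Socs3* downstream: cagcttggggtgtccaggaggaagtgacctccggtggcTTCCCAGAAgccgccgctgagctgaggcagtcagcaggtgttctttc
*Socs3* upstream: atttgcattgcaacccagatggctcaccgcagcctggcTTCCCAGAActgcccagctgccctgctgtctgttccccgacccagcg
*Cish* downstream: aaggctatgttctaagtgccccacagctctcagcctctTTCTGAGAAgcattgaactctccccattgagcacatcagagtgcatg
*Jak2* intron: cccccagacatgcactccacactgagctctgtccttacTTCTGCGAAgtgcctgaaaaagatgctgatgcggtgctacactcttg

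Peaks with a STAT palindrome belonged mainly to the feedback inhibitors. At least 1 match was found in 8 of the 49 MPP3 peaks (16.3%) and in 10 of the 53 MPP4 peaks (18.9%), against 7.22% and 7.96% of all peaks. Of these, 7 in MPP3 and 9 in MPP4 cells belonged to *Socs1*, *Socs2*, *Socs3* or *Cish*, which had 19 peaks in each cell type. The other 4 genes had 30 peaks in MPP3 and 34 in MPP4 cells, of which 1 in each, in the *Jak2* intron, held a match. No peak of *Stat3*, *Stat5a* or *Stat5b* held one. The strict form was found in 4 peaks in either cell type, all of feedback inhibitors, against 1.06% of all MPP3 and 1.11% of all MPP4 peaks. The median peak of the inhibitors was longer than that of the other 4 genes, at 305 against 289 bp in MPP3 and 347 against 241 bp in MPP4 cells. Within 300 bases around each center, 7 MPP3 and 8 MPP4 peaks of the inhibitors held the palindrome. The division into inhibitors and other genes was described after the matches were seen and was not tested.

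**Figure D1:**
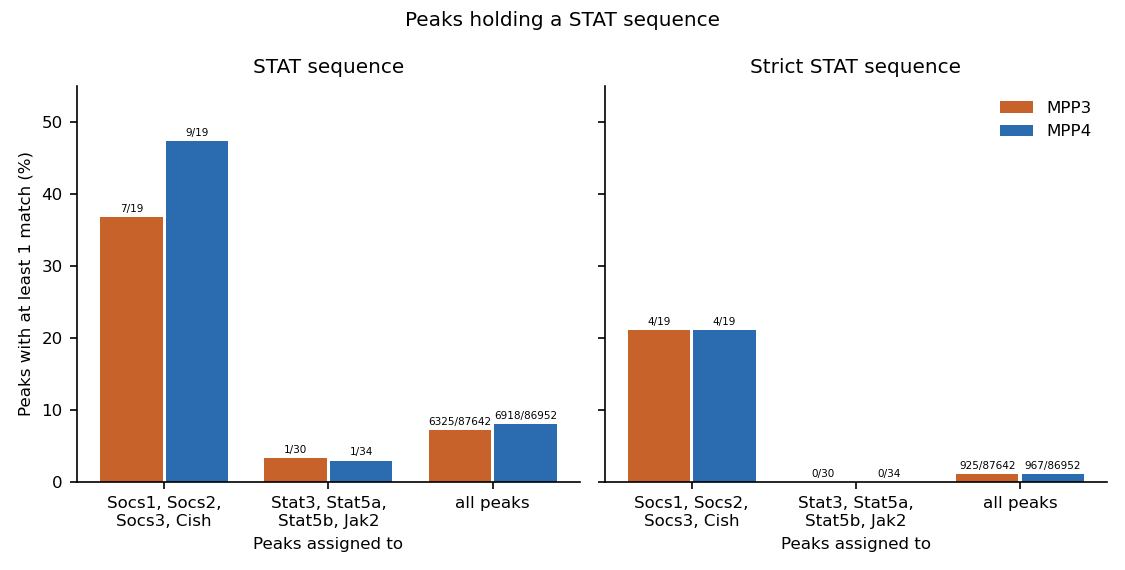
Share of peaks (%) with at least 1 STAT palindrome (left, TTCNNNGAA) or strict palindrome (right, TTCCNGGAA), for the peaks of the 4 feedback inhibitors, of the other 4 genes and for all peaks, in MPP3 (orange) and MPP4 (blue) cells, with the numbers of peaks above the bars. The inhibitors reach 36.8% and 47.4% on the left and 21.1% on the right, against 7.22% and 7.96%, and 1.06% and 1.11%, of all peaks.

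In all, the peaks of the 8 genes held 15 distinct palindromes, 13 of them within peaks of both cell types and 6 of the strict form. *Cish* had 5, *Socs1*, *Socs2* and *Socs3* had 3 each and *Jak2* had 1. The 4 palindromes in the *Cish* promoter peak set it apart: 2 MPP3 and 5 MPP4 peaks of the whole tables held at least 4. They formed 2 pairs, with 11 bp between the starts of the first pair and 17 bp between those of the second. The *Socs2* promoter pair had the same spacing of 11 bp and both of its palindromes were strict. The *Cish* promoter peak also held 2 strict palindromes, 1 in each pair. At least 2 strict matches, at any spacing, were found in 14 MPP3 peaks (0.016%) and 16 MPP4 peaks (0.0184%), these promoter peaks included. In GENCODE vM21, the *Socs2* pair lay 51 and 62 bp upstream of the main start and the *Socs3* palindrome 57 bp upstream of its start. From the nearest coding start of *Cish*, its first pair lay at -47 and -36 bp and its second pair at 58 and 75 bp. All 4 *Cish* promoter palindromes lay in the untranslated first exon of the longest model, which starts further upstream. RefSeq placed the *Socs3* palindrome in the first exon too, and those of *Socs2* in exons of predicted models only. In the RefSeq promoters, which span 250 bases before and 50 after a start, 8.3% of 32851 promoters held the palindrome. No RefSeq promoter was matched to *Socs2*, so it was not searched there. Among the 7 genes matched by symbol, *Cish* and *Socs3* held the palindrome. The *Socs3* match there was not of the strict form, differed from the one printed above and lay in none of its peaks.

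Sequences of other factors were counted in the same way. The E-box, searched on both strands as CAGGTG and, in its palindromic form, as CAGCTG, was found in 25 MPP3 peaks (51.0%, against 38.7% of all) and 31 MPP4 peaks (58.5%, against 40.0%). It was more frequent in the peaks of *Jak2* and the Stat genes, at 60.0% and 61.8%, than in those of the inhibitors, at 36.8% and 52.6%. ETS (GGAAGT) was found in 30.6% and 30.2% of the 8 genes' peaks, against 36.3% and 39.4% of all, and RUNX (TGTGGT) in 32.7% and 32.1%, against 30.8% and 33.0%. The sequence AGATAA, bound by GATA factors, was found in 10 MPP3 peaks (20.4%, against 11.5%) and 6 MPP4 peaks (11.3%, against 9.85%).

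The EBF1 sequence was searched as TCCCNNGGG or its complement CCCNNGGGA. It was found in 6 of the 49 MPP3 peaks (12.2%, against 7.46% of all) and in 4 of the 53 MPP4 peaks (7.55%, against 6.49%). The 8 distinct matches included 3 within peaks of both cell types, in the *Stat3* promoter, 9.3 kb downstream of the *Socs3* start and 10.1 kb upstream of the *Jak2* start. In MPP3 cells only, matches lay in the peak at an internal *Socs2* start (log2 CPM 2.19), in a *Stat5a* intron (2.30) and 10.8 kb downstream of the *Cish* start (1.94), and a second one in the upstream *Jak2* peak (2.52). In MPP4 cells only, a match lay 3.4 kb downstream of the *Socs1* start (2.99). A sequence match does not show that EBF1 was bound there.

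Promoter accessibility was then compared between the genes. All 8 genes had a peak within 1 kb of a coding start in both cell types (with several starts, the most accessible of the nearest peaks is given), as did 65.3% of 20696 protein-coding genes in MPP3 and 65.0% in MPP4 cells. Their order was the same in both: *Stat3*, *Socs1*, *Stat5a*, *Socs3*, *Jak2*, *Stat5b*, *Socs2* and *Cish*. Without replicate values it cannot be said which neighbors in this order differ beyond their spread, and the steps between them were 0.21 to 0.91 in MPP3 and 0.10 to 0.94 in MPP4 cells.

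Among the inhibitors, *Socs1*, whose protein blocks JAK catalytic activity, had the most accessible promoter, with a log2 CPM of 6.87 in MPP3 and 6.72 in MPP4 cells, at percentiles 96.5 and 97.2 of all promoter peaks. *Socs3*, which acts on JAKs bound to receptors of the gp130 family and the G-CSF receptor, followed with 6.02 and 5.50, at percentiles 88.0 and 83.2. Both genes were thus well above the promoter medians of 4.07 and 3.94. In contrast, *Socs2*, whose protein restrains growth hormone receptor signaling, had 4.45 and 4.15, at percentiles 58.1 and 54.8. *Cish*, which competes for receptor docking sites of STAT5, was the lowest of the 8 with 4.24 and 3.83, at percentiles 53.5 and 47.5. These percentiles set the most accessible promoter peak of a gene among all promoter peaks, of which a gene can have several. Per kb of peak, *Socs2* was at percentiles 32.9 and 42.4 and *Cish* at 48.5 and 35.2. For the summed CPM within 1 kb of a start, *Socs2* was at 48.6 and 38.7 and *Cish* at 37.8 and 32.1. On that scale *Socs1* was at 96.2 and 97.3 and *Socs3* at 88.7 and 83.6. The *Socs2* and *Cish* promoter peaks held several STAT palindromes each, that of *Socs3* held 1 and that of *Socs1* none.

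*Jak2*, the kinase of the erythropoietin and GM-CSF receptors, had a promoter log2 CPM of 5.66 in MPP3 and 5.19 in MPP4 cells, at percentiles 82.2 and 77.4. *Stat3*, the effector of interleukin-6 family cytokines, had the highest promoter of the 8 with 7.55 and 7.21, at percentiles 99.1 and 99.0. *Stat5a* and *Stat5b*, near-identical paralogs that mediate the response to erythropoietin and GM-CSF, differed from each other: *Stat5a* had 6.34 and 6.18, and *Stat5b* had 4.75 and 4.25 at its upstream start. *Stat5b* also had a peak at an internal coding start, with 3.63 in MPP3 and 4.0 in MPP4 cells. The authors removed reads of low mapping quality, so sequence shared by the paralogs may hold fewer fragments; this was not tested.

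**Figure D2:**
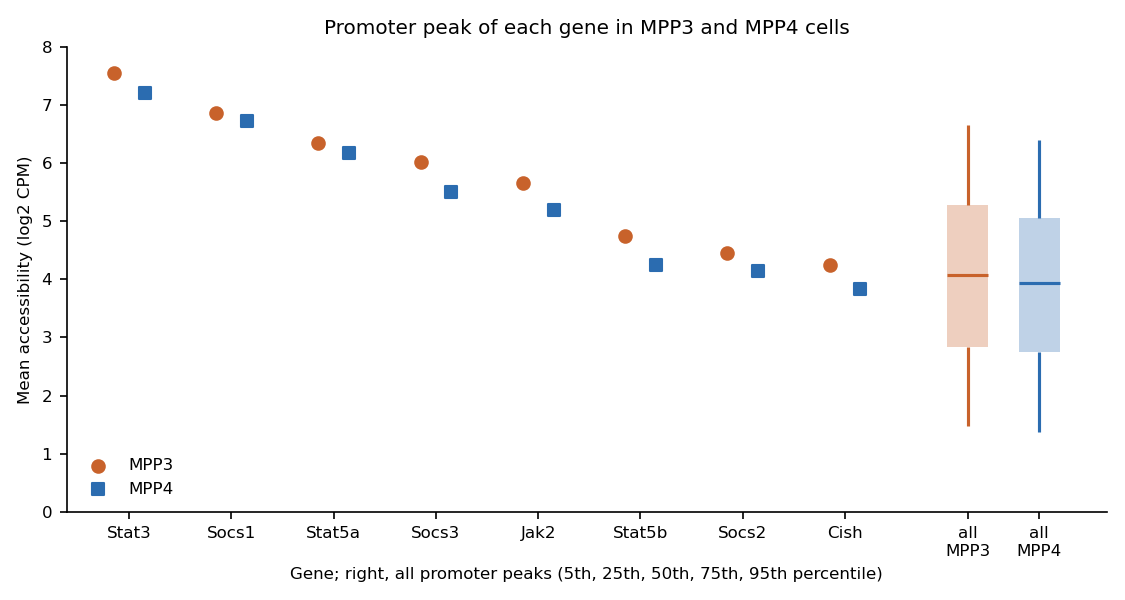
Mean log2 CPM of the promoter peak of each gene in MPP3 (orange circles) and MPP4 (blue squares) cells, with all promoter peaks of each cell type at the right (line, median; box, 25th to 75th percentile; whiskers, 5th to 95th percentile). The order of the genes is the same in both cell types, from *Stat3* (7.55 and 7.21) to *Cish* (4.24 and 3.83), and the MPP4 value is the lower of the pair for each gene.

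The promoter values depend on peak length, because a long peak collects more fragments. Per kb of peak, *Stat3* stayed highest with 8.05 in MPP3 and 7.63 in MPP4 cells. *Socs3*, with a peak of 393 bp, ranked second of the 8 in MPP3 cells with 7.37, and *Socs1*, with 848 bp, was the fourth with 7.11. In MPP4 cells *Stat5a* was the second per kb with 7.17, *Socs1* the third with 7.13 and *Socs3* the fourth with 6.56. *Jak2*, whose MPP3 peak spanned 1000 bp, fell to percentile 58.9 of promoter peaks per kb. *Socs2* was the lowest per kb in MPP3 cells with 4.80, and *Cish* in MPP4 cells with 4.84.

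Related genes of the pathway gave a frame for these levels. The other Socs genes all had a promoter peak: *Socs4* with a log2 CPM of 5.82 in MPP3 and 5.80 in MPP4 cells, *Socs5* with 6.80 and 6.34, *Socs6* with 5.72 and 5.52, and *Socs7* with 5.24 and 5.07. Each was above *Socs2* and *Cish* in both cell types. All 7 of the other Jak and Stat genes had one too, from *Jak1* as the highest (5.87 and 5.52) to *Stat4* as the lowest (3.48 and 4.03). Between these were *Tyk2* (5.67 and 5.45), *Stat6* (5.34 and 5.39), *Stat2* (4.99 and 4.93) and *Jak3* (4.69 and 5.03). *Stat3* was higher than each of them. Of 12 other negative regulators, 12 had a promoter peak in both cell types, with medians of 5.43 and 5.04 and with *Sh2b3*, which encodes the adaptor Lnk, highest in MPP3 (6.92), *Cblb* highest in MPP4 (6.51) and *Ptprc* lowest in both (3.23 and 3.79). Of 19 cytokine receptor genes, 17 had a promoter peak, with *Csf2ra* highest in both (7.60 and 7.21) and *Epor* lowest in MPP3 cells (1.91), while *Csf1r* had none and the X-linked *Il2rg* was not analysed here. Of 10 STAT5 target genes, 8 had one, with *Pim1* highest in MPP3 (7.12), *Myc* highest in MPP4 (6.67) and *Id1* lowest in both (3.10 and 3.18), while *Il2ra* had none and the X-linked *Pim2* was not analysed here.

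Promoter peaks included, the 8 genes had between 2 and 13 peaks each. Protein-coding genes with a peak had a median of 2. *Stat5b* had the most, with 11 in MPP3 and 13 in MPP4 cells over a coding span of 70.0 kb, followed by *Stat3* with 9 in both, *Jak2* with 6 and 9, *Socs3* with 7 in both, *Socs2* with 5 in both, *Socs1* with 4 and 5, *Stat5a* with 4 and 3, and *Cish* with 3 and 2. *Socs3* stood out for its number of peaks around a coding span of 3.1 kb, at percentile 87.4 of genes in both cell types. By summed CPM over all its peaks, *Socs3* reached 186 in MPP3 and 191 in MPP4 cells (percentiles 96.4 and 96.8). *Stat3* was higher with 257 and 207, and *Socs1* followed with 163 and 157 (percentiles 94.9 and 94.7). *Socs2* with 34.8 and 31.6 and *Cish* with 38.6 and 28.9 were well below these. Introns held more of these peaks than any other place, 22 in each cell type, and intronic peaks were weaker (median log2 CPM 2.04 and 2.2) than promoter peaks (4.79 and 4.25). The share and level of intronic peaks among all peaks are not reported here, so these values do not set the 8 genes against the rest.

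**Figure D3:**
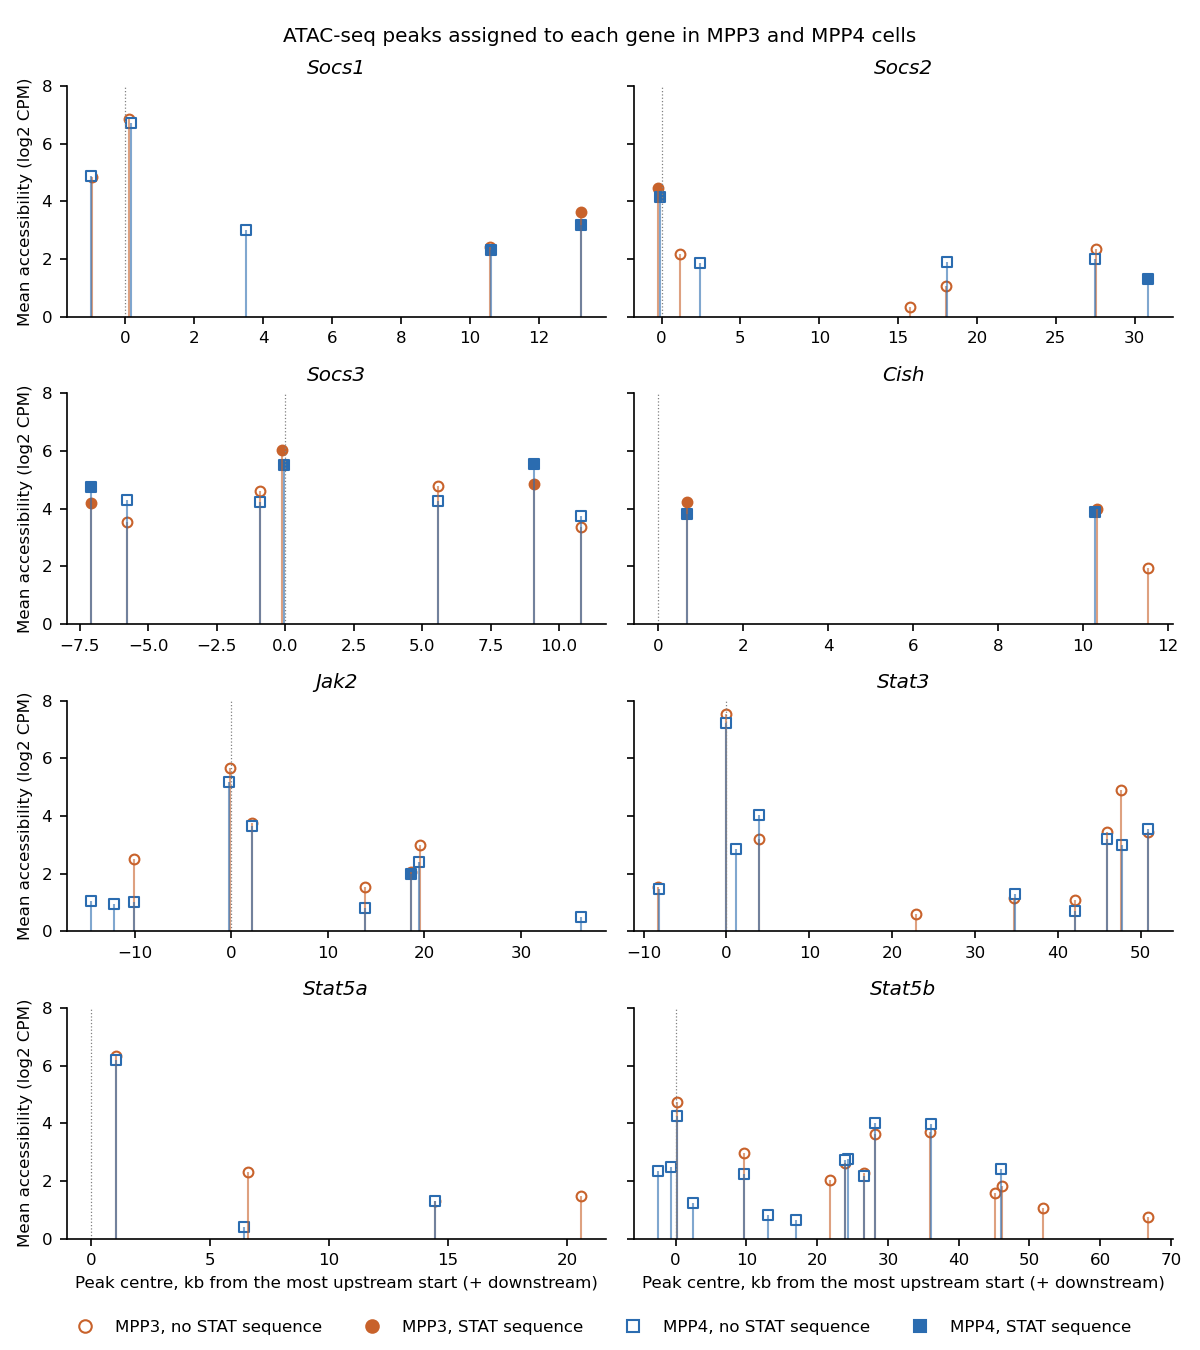
Every peak of the 8 genes in MPP3 (orange circles) and MPP4 (blue squares) cells, by the distance of its center from the most upstream start in kb (x axis, positive downstream) and its mean log2 CPM (y axis), with filled symbols for peaks holding a STAT palindrome. *Socs3* has 7 peaks in both cell types, all between log2 CPM 3.35 and 6.02, whereas the peaks of *Stat5b* and *Jak2* away from the start reach at most 4.0 and 3.74.

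The most accessible *Socs1* peak other than those within 1 kb of its start lay 13.2 kb downstream of the start, with 3.64 in MPP3 and 3.19 in MPP4 cells. This is the peak with a strict palindrome and a second one of the general form, printed above, and its center was 72 bp inside the limit of the downstream window in MPP3 and 76 bp inside in MPP4 cells. A second promoter peak of *Socs1*, centered 1.0 kb upstream of the start, had 4.83 and 4.87. The weaker peak 10.6 kb downstream, with 2.41 and 2.31, reached far enough in MPP4 cells to include a palindrome that the narrower MPP3 peak did not.

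The peaks of *Socs2* apart from its promoter peak were weaker than that peak. The highest of the others was 2.36 in MPP3 and 2.01 in MPP4 cells, 25.9 kb downstream of the nearest coding start. That peak, and those 16.5 kb downstream (1.05 and 1.91), lay in noncoding or decay-targeted *Socs2* transcript models that extend past the coding gene, and outside the window around the coding transcripts. A peak with a palindrome 29.3 kb downstream was listed in MPP4 cells only, with 1.31. Each cell type also had a weak peak at internal *Socs2* starts, 2.19 in MPP3 and 1.85 in MPP4 cells, and these did not overlap.

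*Socs3* had the most accessible distal peaks of the inhibitors. The peak 9.1 kb downstream of the start held a STAT palindrome and had 4.86 in MPP3 and 5.56 in MPP4 cells, next to 5.50 for the promoter peak in MPP4 cells. Per kb of peak it stayed below the promoter there, with 6.13 against 6.56. The peak 5.6 kb downstream had 4.78 and 4.27, and that 10.8 kb downstream had 3.35 and 3.75. Upstream, the peak at 7.1 kb, with another palindrome of the same letters as the downstream one, had 4.20 and 4.76, and the peak at 5.8 kb had 3.54 and 4.30. Close to the start, a second promoter peak 0.9 kb upstream had 4.60 and 4.22. The windows of *Socs3* and its neighbor *Pgs1* overlap, and 3 MPP3 and 2 MPP4 peaks in the *Socs3* window were closer to *Pgs1*.

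At *Cish*, the only peak besides the promoter in both cell types lay 9.6 kb downstream of the nearest start, held a palindrome and had 4.0 in MPP3 and 3.87 in MPP4 cells. A peak of 1.94 was listed in MPP3 cells 10.9 kb downstream. *Cish* lies next to *Mapkapk3*, and 7 MPP3 and 6 MPP4 peaks in its window were assigned to that gene. Just outside the window, 300 and 308 bp from its edge, peaks of 5.05 and 5.64 were assigned to *Gm17041*.

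The most accessible *Jak2* peak besides the promoter was in an intron 1.5 kb downstream of the nearest start, with 3.74 in MPP3 and 3.65 in MPP4 cells. The intronic peak with the palindrome, 18.0 kb downstream, had 2.05 and 1.97, and its neighbor at 18.9 kb had 2.98 and 2.39. In MPP4 cells 3 more peaks were listed, -14.5 and -12.1 kb from the nearest start and 35.7 kb downstream of it, all weak with 1.05, 0.96 and 0.51.

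For *Stat3*, the highest peak besides the promoter in MPP3 cells was intronic, 47.5 kb downstream of the start, with 4.89, but in MPP4 cells it had 2.99. The highest such peak in MPP4 cells was intronic too, 3.8 kb downstream, with 4.02, and had 3.20 in MPP3 cells. A peak in an exon annotated as untranslated, 50.8 kb downstream in MPP3 cells, had 3.46 and 3.56. *Stat5a* had no strong peak beyond its promoter: the intronic peak 5.4 kb downstream had 2.30 in MPP3 and 0.41 in MPP4 cells, and that at 13.3 kb had 1.31 and 1.29. *Stat5b* had its highest peak besides promoters in an intron, 7.8 kb downstream of the internal start in MPP3 cells, with 3.70 and 3.97. *Stat3*, *Stat5a* and *Stat5b* are neighbors on chromosome 11, so peaks of 1 gene lie in the windows of the others, and closeness decided the assignment.

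MPP3 and MPP4 cells shared most of these peaks, as they did most of all peaks. Of the 49 MPP3 peaks, 40 overlapped an MPP4 peak by at least 1 bp (81.6%, 95% exact binomial interval 68.0 to 91.2%), against 75.7% of all MPP3 peaks. Of the 53 MPP4 peaks, 40 overlapped an MPP3 peak (75.5%, interval 61.7 to 86.2%), against 76.7% of all MPP4 peaks. Peaks of 1 gene are not independent, and the intervals cover counting error only. The 9 MPP3 and 13 MPP4 peaks without a partner were weak, with medians of 1.48 and 1.31 against 3.50 and 3.60 for those with one. All MPP3 and MPP4 peaks without a partner had medians of 1.21 and 1.20, so low values were not particular to these genes. *Socs3* was the gene with the most shared peaks among the inhibitors, 7 of 7, and *Jak2* shared its 6 MPP3 peaks. Of the unshared peaks, the highest were 2.99 in MPP4 cells, downstream of *Socs1* at 3.5 kb from its start, and 2.86 in MPP4 cells in *Stat3* at 1.0 kb from the nearest start.

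In the 40 overlapping pairs, the MPP4 value was lower in 27 and higher in 13. Among all overlapping pairs, 69.0% of those with promoter peaks and 40.9% of those without were lower in MPP4 cells. Pairs of 1 gene are not independent, and *Jak2* alone gave 6 of the 27. The median difference (MPP4 minus MPP3) was -0.14 log2 CPM, against 0.035 in all 65855 overlapping pairs, of which the middle 50% lay between -0.29 and 0.41. For the promoter peaks at the main starts, the MPP4 value was lower in 8 of 8 genes, with differences from -0.15 at *Socs1* to -0.52 at *Socs3*. Promoter pairs in general were lower in MPP4 cells, with 69.0% of 14879 pairs below 0 and a median of -0.16, so the direction was that of most promoters. Per kb of peak, the promoter differences of *Socs1* (0.02), *Jak2* (0.06) and *Socs2* (0.27) were above 0, and those of the other 5 genes stayed below 0, from -0.14 at *Stat5a* to -0.81 at *Socs3*. The direction at *Socs1*, *Socs2* and *Jak2* thus changed with the scale, and the MPP3 peak was the longer of the pair at each of them.

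*Socs3* differed in direction between its promoter and its distal peaks. The promoter pairs differed by -0.52 and -0.39, whereas 4 of the 5 distal pairs were higher in MPP4 cells, by 0.40, 0.55, 0.70 and 0.75, and the peak 5.6 kb downstream differed by -0.51. Per kb of peak, these 4 stayed higher, by 0.34 to 0.55, and the fifth (-0.35) and the promoter (-0.81) stayed lower. Of all overlapping pairs without a promoter peak, 40.9% were below 0 and the median was 0.12. The directions of the *Socs3* promoter pairs and of the 4 higher distal pairs were thus those of most pairs of their kind. Both distal *Socs3* peaks with a palindrome were among the 4. The distal pairs with a palindrome in both cell types at other genes went the other way. They differed by -0.45 at *Socs1*, -0.12 at *Cish* and -0.08 at *Jak2*.

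By log2 CPM, the widest differences in the 40 pairs were in introns of *Stat3* and *Stat5a* and upstream of *Jak2*. The *Stat3* intronic peak 47.5 kb downstream of the start had a difference of -1.90, at percentile 0.373 of all pairs, and of -1.61 per kb of peak, at percentile 0.128. Its central 300 bases, chr11:100891711-100892010 on the minus strand, are shown because this peak differed most between the cell types on both scales. Capitals mark 1 E-box (CACCTG, the complement of CAGGTG), 1 ETS match (ACTTCC, the complement of GGAAGT) and 1 GATA match (TTATCT, the complement of AGATAA). No STAT palindrome and no EBF1 sequence was found in these bases.
*Stat3* intron: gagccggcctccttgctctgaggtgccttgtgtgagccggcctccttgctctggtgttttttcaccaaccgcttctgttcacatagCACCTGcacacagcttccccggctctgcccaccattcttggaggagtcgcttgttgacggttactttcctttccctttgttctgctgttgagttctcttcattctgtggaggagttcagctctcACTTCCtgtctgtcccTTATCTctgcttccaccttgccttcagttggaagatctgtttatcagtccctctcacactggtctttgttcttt

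The *Stat5a* intronic peak 5.4 kb downstream had a difference of -1.89 (2.30 and 0.41), but the MPP3 peak spanned 474 bp and the MPP4 peak 150 bp, and per kb the difference was -0.23. The *Jak2* peak 10.1 kb upstream had a difference of -1.51 (2.52 and 1.01), and of -0.74 per kb. All 6 *Jak2* pairs were below 0, with a median of -0.53, though per kb the promoter pair was above 0. Higher in MPP4 cells were the *Stat3* intronic peak 3.8 kb downstream, by 0.82 (0.38 per kb), and a *Socs2* pair 16.5 kb downstream, by 0.85, where the MPP4 peak was the longer (347 against 150 bp) and the difference per kb was -0.36. *Stat5b* pairs fell on both sides, from -0.73 to 0.59. The lowest of them, in an intron 9.7 kb downstream of the nearest start, differed by -0.94 per kb. On that scale it was the second widest of the 40 pairs, at percentile 1.31 of all pairs.

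**Figure D4:**
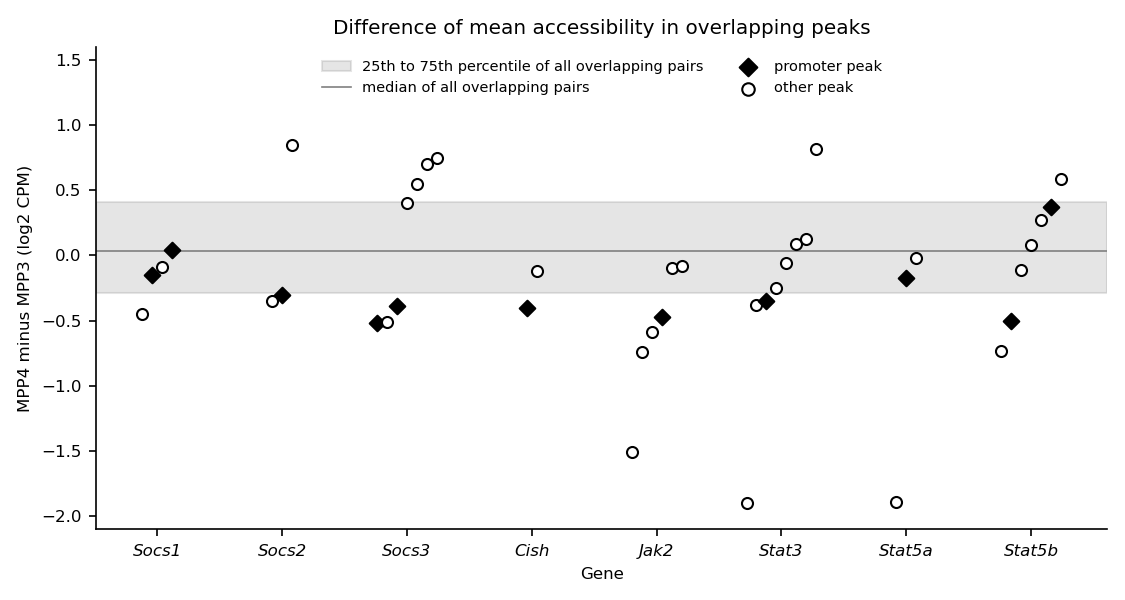
Difference in mean log2 CPM (MPP4 minus MPP3) for each of the 40 overlapping peak pairs, by gene, with promoter peaks as filled diamonds, other peaks as open circles, and the 25th to 75th percentile (gray band) and median (gray line) of all 65855 pairs. The widest differences are -1.90 at *Stat3* and -1.89 at *Stat5a*, and *Socs3* has 4 distal peaks at 0.40 or above beside 3 pairs below 0.

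The window limits placed a few accessible peaks just outside. The nearest outside peaks were 99 bp (MPP3, 1.52) and 173 bp (MPP4, 1.20) from the *Stat3* window and belonged to *Cavin1*. Beyond the *Socs3* window, unassigned peaks 1833 bp (MPP3, 5.15) and 1835 bp (MPP4, 5.33) from its downstream edge were more accessible than the peak just inside (3.35 and 3.75). Beyond the *Socs1* window, peaks of 3.56 in MPP3 and 4.20 in MPP4 cells lay 2397 and 2400 bp from the downstream edge, against 3.64 and 3.19 for the peak just inside.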

How the data were processed

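As the paper's methods state, the authors trimmed the reads (Cutadapt 2.10), aligned them with mm10, kept short fragments free of nucleosomes and of duplicates, found peaks with MACS2 2.2.7.1 after joining the replicates of a condition, and joined both genotypes' peaks in a cell type before a count model in edgeR 3.32.0. Versions are those of the submitters' processing notes. Each deposited table holds peak positions, a mean log2 CPM, which the authors' fit gives relative to all fragments in peaks, and the authors' own genotype comparison (log2 fold change, F statistic, p-value and FDR). Only positions and the mean log2 CPM were used. The labels give a planned depth only, so the depth of single libraries is unknown and no per-library precision can be given. Cell types came from the labels and the tables' names.

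Peaks were assigned by closeness to the start, center or end of GENCODE vM21 transcripts on 19 autosomes, and sequences were read from GRCm38.p6, the build of mm10. A promoter peak was centered within 1 kb of a transcript start, and percentiles are within a cell type. Motif matches on both strands were counted in whole peaks, and overlapping matches were each counted. The 8 genes were named with their promoter and most accessible other peak, the other Socs, Jak and Stat genes individually, and other lists by their highest and lowest gene. Some genes under this rule are not reported here. Further peaks of the 8 genes, *Kit*, *Cd48* and neighboring genes were chosen after their values were seen. The 8 genes and the lists were chosen with earlier results of these data known. Assignment, overlap and motif code was tested on simulated data. Python 3.11.15, numpy 2.4.6, pandas 2.3.3, scipy 1.17.1, pysam 0.24.0 and matplotlib 3.10.9 were used.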

Additional observations from a re-analysis of the deposited data

How the results depend on the processing

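The counts of peaks of the 8 genes stayed within 1.5 times the reported ones (49 in MPP3 and 53 in MPP4 cells) under all 4 alternatives: with windows of 10 kb upstream and 5 kb downstream they were 44 and 46, with protein-coding genes only 51 and 54, by the nearest transcript start 47 and 53, and with a log2 CPM of at least 2, 35 and 36. With 50% of both peaks overlapping, 77.6% of MPP3 and 71.7% of MPP4 peaks of the 8 genes were shared, against 81.6% and 75.5%. The share of all peaks under this stricter rule is not reported here, so these values do not set the 8 genes against the rest. The median percentile of the 8 promoters was 85.1 in MPP3 and 80.3 in MPP4 cells, against 75.8 and 74.6 per kb of peak and 79.4 and 74.0 for the summed CPM within 1 kb of a start, so it depended on the scale. Of 32 comparisons of single promoters under these 2 scales, 17 moved by more than 5 percentile points. Peaks with a STAT palindrome numbered 8 and 10, against 4 and 4 for the strict form and 8 and 9 within 300 bases. Leaving out single libraries was not run, because the tables hold no values per library. No paired analysis was possible because no result comes from a test and the columns used carry no replicate.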
